A study of Mus musculus with 27 samples.

Results

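The genes described here encode the proteins of the cytosolic ribosome. They were taken from the deposited count table by name: every symbol of the form Rpl or Rps followed by a number, together with Rpsa, Rplp0, Rplp1 and Rplp2, with names ending in "-ps" left out. The rule found 84 of 27304 genes, of which 33 encode small-subunit and 51 large-subunit proteins. Among them, 7 are paralogs of another member (Rpl3l, Rpl22l1, Rps27l, Rpl39l, Rpl7l1, Rpl10l and Rps4l), and the other 77 are called canonical here. Rpl10l had 0 counts in every library, so 83 members could be tested, or 82 in remote tissue alone. The 4 "-ps" genes that were left out held at most 0.206% of the members' counts in any library.

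Hearts came from male C57BL/6J mice of genotype ApoE-/-, 7 days after myocardial infarction (MI), and every group had eaten a western diet for 4 weeks beforehand. Mice with chronic kidney disease (CKD) then ate western diet with adenine, at 0.3% for 10 days and at 0.15% for 11 days, of which 4 preceded and 7 followed the infarction, while control mice stayed on western diet without adenine. Bulk RNA was sequenced from 27 samples of 14 mice: remote myocardium (6 control, 8 CKD) and infarct (6 control, 7 CKD), with both tissues present for 13 mice. There was no group without infarction or with a functional Apoe gene, and the animals' age is not given in the sources used here.

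A ribosome joins a small subunit, which reads the messenger RNA, to a large subunit, which forms the peptide bond, and nearly all ribosomal proteins are needed in equal number. Their messenger RNAs share a start of C and T bases, the terminal oligopyrimidine tract, through which the kinase complex mTORC1 and the RNA-binding protein LARP1 set their translation. A few members have paralogs that can take their place in some tissues. Rpl3l is the best known in the heart: it is made in heart and skeletal muscle, where it substitutes for Rpl3.

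The sequence around the transcription start is shown for a few members, to let runs of C and T be compared between canonical members and paralogs. In each of the following windows, 15 bases before and 15 after a RefSeq start on GRCm38.p6 are given on the gene's own strand, and capitals mark the longest unbroken run of C and T. The first 6 genes are canonical members, and the last are paralogs, of which Rpl3l has 2 listed starts. These genes were chosen after the windows had been seen.

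Rps6, small subunit, chr4:86857353-86857382, minus strand: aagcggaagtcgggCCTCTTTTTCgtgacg

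Rps27, small subunit, chr3:90213634-90213663, minus strand: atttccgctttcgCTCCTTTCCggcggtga

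Rps15a, small subunit, chr7:118116133-118116162, minus strand: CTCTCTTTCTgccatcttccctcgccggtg

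Rpl15, large subunit, chr14:18270972-18271001, minus strand: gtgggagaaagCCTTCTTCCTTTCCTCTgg

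Rpl27a, large subunit, chr7:109519180-109519209, plus strand: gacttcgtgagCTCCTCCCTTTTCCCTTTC

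Rpl35, large subunit, chr2:39005117-39005146, minus strand: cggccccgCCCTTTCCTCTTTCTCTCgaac

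Rpl22l1, paralog of Rpl22, chr3:28805493-28805522, plus strand: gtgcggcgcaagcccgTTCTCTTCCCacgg

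Rpl3l, paralog of Rpl3, upstream start, chr17:24727811-24727840, plus strand: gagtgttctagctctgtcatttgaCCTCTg

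Rpl3l, downstream start, chr17:24732670-24732699, plus strand: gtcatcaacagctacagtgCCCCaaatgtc

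The run covered 19 bases in Rpl27a and 18 in Rpl35, against 5 and 4 at the 2 Rpl3l starts. In Rps15a it lies wholly before the listed start, and in Rpl22l1, a paralog, it covered 10 bases. Of the 84 members, 63 were in the RefSeq table. A run of at least 8 C or T bases lay in this window in 25 of 57 canonical members (43.9%), against 13.9% of all 27025 genes in that table. Most canonical members thus had no such run there, and their median longest run was 7 bases. All 6 canonical genes shown have one, so they do not stand for the canonical members. Of 6 paralog members, 2 had such a run (33.3%), and the median longest run of these 6 was 6 bases. The windows shown thus do not stand for a difference between canonical members and paralogs. Taking only genes with 1 listed start gave 42.9% of 49 canonical members and 11.7% of all genes. The motif CCGGAAG, searched on both strands of the 300 bases from 250 before to 50 after the start, was present in 42.1% of the canonical members and 9.93% of all genes. On the opposite strand this motif reads CTTCCGG, so part of it can lie inside a run of C and T. Binding or use of either motif was not measured.

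The tissues differed in makeup. Total counts per library ran from 14255456 to 42566498. A cardiomyocyte score, the mean log2 CPM (counts scaled to a common library total) of 12 cardiomyocyte genes that hold no ribosomal protein gene, averaged 12.3 ± 0.39 (SD, n = 6) in control remote tissue, 12.7 ± 0.13 (SD, n = 8) in CKD remote tissue, 10.0 ± 1.24 (SD, n = 6) in control infarcts and 11.7 ± 0.68 (SD, n = 7) in CKD infarcts. None of the 12 genes was at 0 in any library. All 12 were called lower in the infarct of control mice, and all 8 fibroblast and scar genes and all 8 macrophage genes were called higher there. In CKD mice 2 of the 12 cardiomyocyte genes were called lower, and all 8 scar and all 8 macrophage genes higher. All 5 endothelial genes were called lower in the infarct in both diets. Mitochondrially encoded genes took 17.99 ± 3.24% of counts in control remote tissue (SD, n = 6) and 4.98 ± 2.24% in control infarcts (SD, n = 6). The corresponding shares in CKD mice were 18.7 ± 2.34% in remote tissue (SD, n = 8) and 11.9 ± 5.03% in infarcts (SD, n = 7). In all, 3 libraries stood apart from their groups, namely control remote 9180, with a score of 11.6, and CKD infarct 9172 and 9179, with scores of 12.4 and 12.8, the latter level with the highest remote library. The 8 scar genes summed to 981 CPM in CKD infarct 9179, under the lowest remote library of either diet (1116 CPM). They summed to 6946 CPM in CKD infarct 9172. Control remote 9180 held 14649 CPM of these genes, against a control remote median of 2239 CPM. For the remote sample of mouse 9179 the title (CKD) and the treatment label (control) conflict, and it was placed with CKD by its title. In bulk tissue, fewer cells of a type and less RNA per cell cannot be told apart.

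Ribosomal protein genes took a larger share of counts in the infarct than in remote myocardium. In control mice the share averaged 2.75 ± 0.67% in remote tissue (SD, n = 6; lowest 2.15%, median 2.55%, highest 4.01%) and 4.83 ± 0.49% in the infarct (SD, n = 6; lowest 4.36%, median 4.75%, highest 5.68%). The 2 groups did not overlap, and the highest remote value was that of library 9180. In CKD mice it averaged 2.65 ± 0.29% in remote tissue (SD, n = 8; 2.30% to 3.15%, median 2.56%) and 3.97 ± 0.67% in the infarct (SD, n = 7; 3.27% to 4.67%, median 3.84%). These 2 groups did not overlap either. With mitochondrial genes left out of the total, the CKD groups overlapped, at 2.79% to 3.98% in remote tissue and 3.69% to 5.27% in the infarct, while the control groups did not (highest remote 4.59%, lowest infarct 4.65%). The CKD infarct libraries 9172 and 9179 were at 3.27% and 3.32%, the lowest of their group. Small-subunit counts amounted to 0.749 of large-subunit counts in remote tissue of control mice (SD 0.012, n = 6), and the same ratio was 0.751 ± 0.0094 in CKD remote tissue (SD, n = 8), 0.755 ± 0.0094 in control infarcts (SD, n = 6) and 0.751 ± 0.017 in CKD infarcts (SD, n = 7). The subunit ratio thus differed between groups by less than its spread between libraries.

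**Figure D1:**
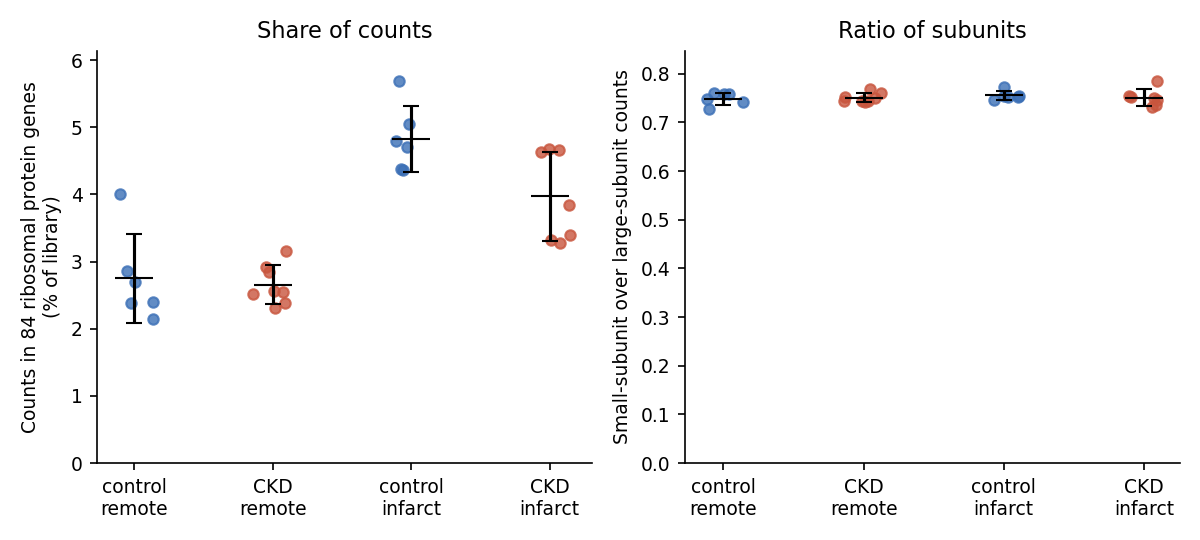
Left, counts in the 84 ribosomal protein genes as a percentage of all counts of a library. Right, counts in small-subunit genes divided by counts in large-subunit genes. Each point is 1 library, and the bar and whiskers are the group mean and SD. In control mice the infarct libraries lie between 4.36% and 5.68% and the remote libraries between 2.15% and 4.01%, while the subunit ratio stays close to 0.75 in every group.

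Most members were higher in the infarct than in remote tissue of control mice, gene by gene. After scaling by TMM factors, which hold the bulk of genes level between libraries, 50 of 83 members tested were called higher and 2 lower (adjusted p under 0.05, edgeR's quasi-likelihood test with Benjamini-Hochberg adjustment over all genes). Over all 14770 genes tested, 30.7% were called higher and 33.2% lower, 63.9% in all. The members' median log2 fold change was 0.38, against -0.01 over all genes. Of the canonical members, 22 of 31 small-subunit and 27 of 46 large-subunit genes were called higher, with medians of 0.44 and 0.37. In 23 of 83 members the control infarct and control remote libraries did not overlap, against 33.5% of all genes. Without library 9180, 57 members were called higher and 2 lower, against 66.2% of all genes (4758 higher and 5098 lower).

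In CKD mice 49 of 83 members were called higher in the infarct and 1 lower, against 24.7% and 20.2% of all genes (45% in all). The members' median log2 fold change was 0.32, against -0.01 over all genes. Small-subunit genes were called higher in 20 of 31 cases and canonical large-subunit genes in 28 of 46. Of the members called higher, 46 were called in both diets, which is 92% of those in control mice and 93.9% of those in CKD mice. The sharing between diets was not computed over all genes, so these percentages cannot be read as particular to the members. The infarct and remote libraries of CKD mice did not overlap for 2 of 83 members, Rps12 and Rpl22l1, against 2.23% of all genes. Without CKD infarct libraries 9172 and 9179, 49 members were called higher and 2 lower. Over all genes the calls rose to 60.4% in that fit (4707 higher and 4313 lower), so the members stood out less from the rest. Scaling by total counts alone put the median of all genes at 0.48 in control and 0.28 in CKD mice, and it called 77 and 76 members higher. Over all 14770 genes that scaling called 8217 and 6503 higher, up from 4528 and 3654, so the added calls were not particular to the members.

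**Figure D2:**
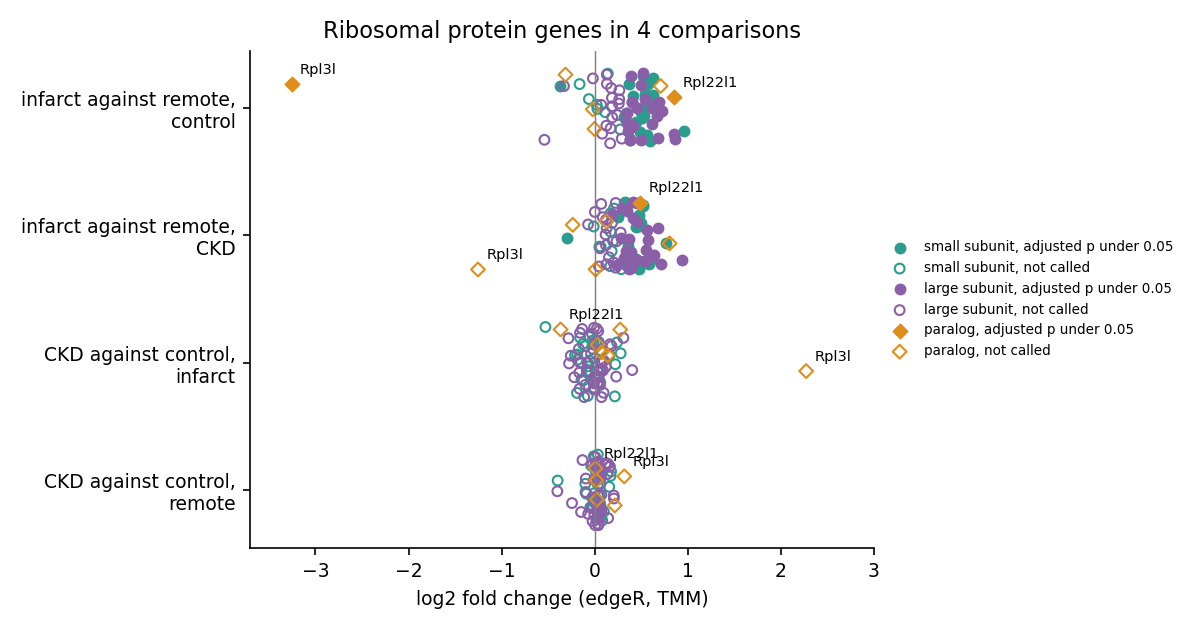
The log2 fold change of every tested ribosomal protein gene in 4 comparisons, on the horizontal axis. Each point is 1 gene, with colour for small subunit, large subunit or paralog, filled where the adjusted p was under 0.05, and spread vertically at random to separate points. The cloud lies to the right of 0 in both comparisons of infarct with remote tissue and around 0 in both comparisons of CKD with control, with Rpl3l far to the left in control infarcts at -3.25.

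Among small-subunit proteins, Rps12, which sits on the head of the subunit, had the largest rise in control mice. It was at 238 to 560 CPM in control remote tissue (median 307.8) and at 647 to 759.5 CPM in control infarcts (median 684), so the groups did not overlap. In CKD mice it was at 291.5 to 506.5 CPM in remote tissue (median 344) and 519.9 to 859 CPM in the infarct (median 548.5), again with no overlap. Its log2 fold change was 0.96 ± 0.18 (SE, adjusted p = 6.99e-05) in control and 0.77 ± 0.16 (SE, adjusted p = 6.33e-04) in CKD mice. Rps2, which lies near the entry of the messenger RNA channel, was the exception of its subunit. It was at 1028 to 1270 CPM in control remote tissue (median 1123) and at 759.5 to 915 CPM in control infarcts (median 895), with no overlap. Its log2 fold change was -0.37 ± 0.12 (SE, adjusted p = 0.0119) in control mice, and it became 0.13 with adjusted p = 0.205 when scaled by total counts. In CKD mice Rps2 was at -0.30 ± 0.11 (SE, adjusted p = 0.0334), and with mouse as a block it was at -0.32 with adjusted p = 0.0635.

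Rps19, whose human counterpart is mutated in Diamond-Blackfan anaemia, was at 189 to 345 CPM in control remote tissue (median 261) and 333 to 458 CPM in control infarcts (median 391). The ranges overlapped by a small stretch, and the log2 fold change was 0.58 ± 0.14 (SE, adjusted p = 7.70e-04) in control and 0.53 ± 0.12 (SE, adjusted p = 0.00163) in CKD mice. Rps27a, made as a fusion with ubiquitin, rose by 0.63 ± 0.13 (SE, adjusted p = 1.54e-04) and 0.49 ± 0.11 (SE, adjusted p = 0.00152) on the log2 scale. Rps6, the protein phosphorylated by the S6 kinases, was at 406.5 to 611 CPM in control remote tissue and 575 to 728.5 CPM in control infarcts. Its log2 fold change of 0.33 ± 0.11 (SE, adjusted p = 0.0149) was near the members' median, and that of CKD mice was 0.25 ± 0.10 (SE, adjusted p = 0.0476). With mouse as a block the Rps6 value in CKD mice was 0.26, with adjusted p = 0.0604. Rpsa, which is also known as a laminin receptor, did not pass in either diet (0.28 ± 0.13, adjusted p = 0.0634 in control and 0.17 ± 0.12, adjusted p = 0.224 in CKD mice). Without library 9180, Rpsa passed in control mice, at 0.37 with adjusted p = 0.0130. Rps28 and Rps3a1 rose in both diets, by 0.51 and 0.62 for Rps28 and by 0.56 and 0.32 for Rps3a1 in control and CKD mice. With mouse as a block, Rps3a1 in CKD mice was at 0.31 with adjusted p = 0.0505.

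Among large-subunit proteins, Rpl39, a small protein that lines the exit tunnel of the new peptide, had the largest rise in CKD mice. It was at 116 to 248 CPM in control remote tissue (median 159) and 275 to 339 CPM in control infarcts (median 299), with no overlap. In CKD mice the remote libraries were at 120.3 to 192 CPM (median 129.8) and the infarct libraries at 186 to 347.5 CPM (median 259.5), with a slight overlap. Its log2 fold change was 0.85 ± 0.18 (SE, adjusted p = 2.13e-04) in control and 0.93 ± 0.16 (SE, adjusted p = 1.29e-04) in CKD mice. Rpl10a, Rpl34, Rpl17 and Rpl36a rose in both diets, and in each of them the control infarct libraries lay above all control remote libraries. Their log2 fold changes in control mice were 0.62 for Rpl10a, 0.68 for Rpl34, 0.67 for Rpl17 and 0.61 for Rpl36a. Rpl10, which joins the subunit late in its assembly, rose by 0.66 ± 0.14 (SE, adjusted p = 2.98e-04) in control and 0.56 ± 0.13 (SE, adjusted p = 0.00145) in CKD mice on the log2 scale.

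Rpl5, which with Rpl11 and 5S RNA can bind the p53 regulator Mdm2, was at 291 to 459 CPM in control remote tissue and 447 to 591 CPM in control infarcts. It was called higher in control mice (0.37 ± 0.12, SE, adjusted p = 0.0109), while in CKD mice it did not pass (0.23 ± 0.11, SE, adjusted p = 0.0845). The difference between the diets was not called for Rpl5 or for any other member. The stalk proteins, which recruit elongation factors, differed in their calls. Rplp1 was called higher in both diets (0.40 ± 0.14, adjusted p = 0.0155 and 0.41 ± 0.12, adjusted p = 0.0114), and Rplp0 in neither (0.18 ± 0.11, adjusted p = 0.164 and 0.13 ± 0.10, adjusted p = 0.297). Rplp2 was at 260 to 380 CPM in control remote tissue and 309.5 to 371 CPM in control infarcts, which overlap throughout. Rpl13a was called higher in both diets, by 0.72 ± 0.17 (SE, adjusted p = 6.49e-04) and 0.54 ± 0.15 (SE, adjusted p = 0.00623), but its level of 10.3 to 24.9 CPM over all libraries was far under that of most members. Rps10, at 0.619 to 3.02 CPM, and Rpl24, at 1.30 to 7.48 CPM, were lower still. Ribosomal protein genes have many near-identical copies between which the authors' counting can split reads, so the levels of these 3 genes are uncertain.

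Set against the ribosome as a whole, some members rose more than the rest and others less. For this the library size was replaced by the summed counts of all members, which centres the group near 0 by construction. On this scale 19 members were called higher and 17 lower in control infarcts, and 16 higher and 11 lower in CKD infarcts. Over all genes the same fit called 16.7% higher and 47.5% lower in control mice, and 13.5% higher and 42.7% lower in CKD mice. Both diets called 12 genes higher, which is 63.2% of those in control and 75% of those in CKD mice. They were Rpl3, Rpl10, Rpl12, Rpl17, Rpl34, Rpl36a, Rpl39, Rps12, Rps16, Rps19, Rps20 and Rps27a. Both called 9 genes lower, which is 52.9% of those in control and 81.8% of those in CKD mice, among them Rpl3l, Rpl7l1, Rps4l, Rps2, Rpl36, Rpl8, Rpl27 and Rps13. On this scale too, the sharing between diets was not computed over all genes. Rps12 stood at 0.66 and 0.49 on this log2 scale and Rpl39 at 0.55 and 0.66 in control and CKD mice, while Rps2 stood at -0.72 and -0.59 and Rpl36 at -0.66 and -0.35. Of the 21 genes, Rpl12, Rps16, Rps20, Rps4l, Rpl8, Rpl27 and Rps13 are named here after their values were seen.

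**Figure D3:**
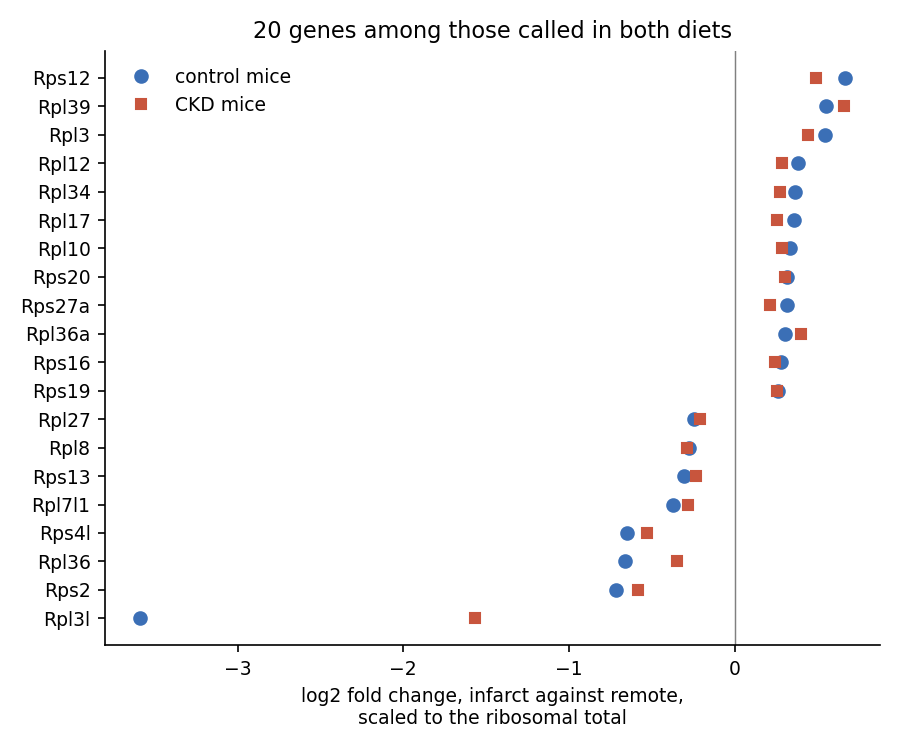
The log2 fold change between infarct and remote tissue for 20 of the 21 genes called in both diets when each library is scaled to its ribosomal total, with circles for control and squares for CKD mice. Values to the right of 0 are genes that rose more than the ribosomal total. Rps12, Rpl39 and Rpl3 are at the top in control mice, and Rpl3l is far to the left at -3.59 in control and -1.57 in CKD mice.

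Rpl3 and its muscle paralog Rpl3l moved in opposite directions. Rpl3 was at 260 to 583 CPM in control remote tissue (median 338) and 540.1 to 816 CPM in control infarcts (median 654). The ranges overlapped through library 9180, the highest remote one. In CKD mice Rpl3 was at 266 to 389.7 CPM in remote tissue (median 358.5) and 367 to 742 CPM in infarcts (median 595). Rpl3 rose by 0.87 ± 0.18 (SE, adjusted p = 1.75e-04) in control and 0.72 ± 0.16 (SE, adjusted p = 0.00104) in CKD mice on the log2 scale. Rpl3l was at 104 to 518 CPM in control remote tissue (median 337) and 2.15 to 84.5 CPM in control infarcts (median 35.3), so no infarct library reached the lowest remote one. Its log2 fold change was -3.25 ± 0.66 (SE, adjusted p = 1.77e-04). In CKD mice Rpl3l was at 355 to 552.5 CPM in remote tissue (median 427) and 56.3 to 553 CPM in infarcts (median 81.6). The 2 highest CKD infarct libraries were 9172 and 9179, the latter at the level of remote tissue. The log2 fold change there was -1.25 ± 0.56 (SE, adjusted p = 0.0668), which became -2.35 with adjusted p = 8.79e-04 without those libraries and -1.84 with adjusted p = 0.0202 with mouse as a block.

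**Figure D4:**
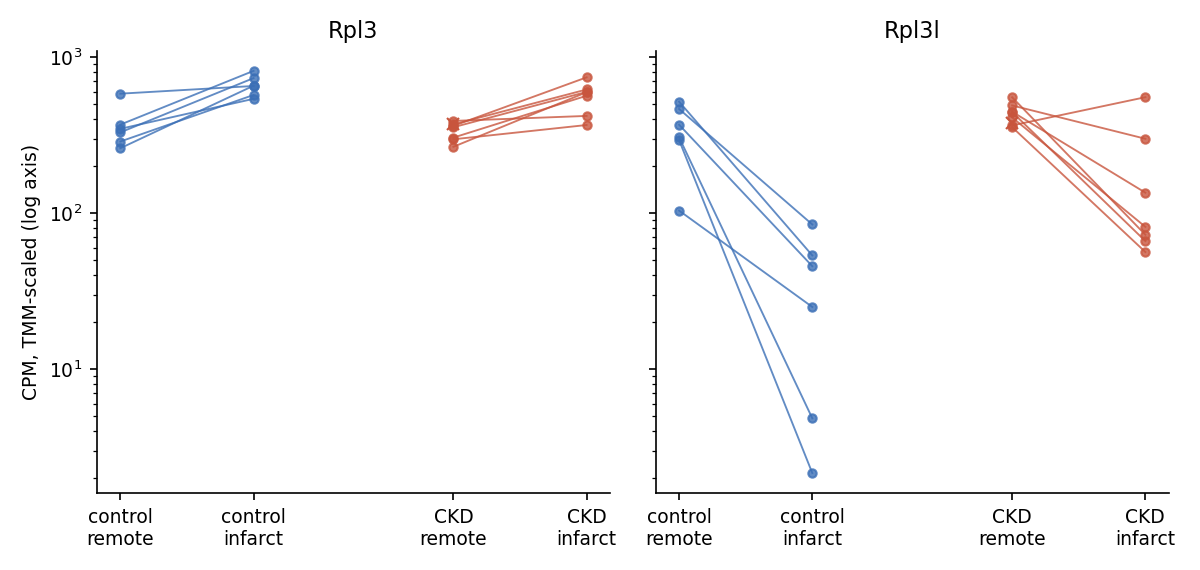
Rpl3 and Rpl3l in CPM on a log axis, with a line joining remote and infarct tissue of the same mouse and a cross for the mouse with remote tissue only. Rpl3 is higher in the infarct of all 6 control and all 7 CKD mice with both tissues. Rpl3l is between 104 and 518 CPM in control remote tissue and between 2.15 and 84.5 CPM in control infarcts, and 1 CKD infarct, from mouse 9179, stays at 553 CPM.

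Per length of transcript, taken from the longest protein-coding transcript of each gene in GENCODE M21, the 2 genes were at like levels in remote tissue. Rpl3 was at 268 ± 85.0 and Rpl3l at 249 ± 106.5 CPM per kilobase in control remote tissue (SD, n = 6), and at 251 ± 32.7 and 313 ± 49.0 in CKD remote tissue (SD, n = 8). In control infarcts Rpl3 was at 490 ± 75.5 and Rpl3l at 26.1 ± 22.97 CPM per kilobase (SD, n = 6), and in CKD infarcts they were at 413 ± 93.8 and 131 ± 134.5 (SD, n = 7). The ratio of counts within a library does not depend on library scaling, and it was tested by exact two-sided permutation over libraries, adjusted over 20 tests of 4 paralog pairs in 5 comparisons. The log2 ratio of Rpl3l to Rpl3 averaged -0.19 ± 1.23 in control remote tissue (SD, n = 6) and -5.07 ± 2.30 in control infarcts (SD, n = 6), with no overlap and an adjusted p = 0.0108 by the exact permutation test. In CKD mice it averaged 0.34 ± 0.24 in remote tissue (SD, n = 8) and -2.12 ± 1.59 in infarcts (SD, n = 7), with an adjusted p = 0.0112 by the same exact test. Within mice, it was lower in the infarct in 6 of 6 control and 6 of 7 CKD mice. Mouse 9179 was the exception, at 0.30 higher in the infarct. Taking within-mouse differences, the exact sign-flip permutation test gave p = 0.03125 in each diet, which is the smallest it can give with 6 mice, and an adjusted p = 0.0625.

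The Rpl3l to Rpl3 ratio was higher in CKD than in control infarcts. Control infarcts held log2 ratios from -8.40 to -2.76 (median -4.16) and CKD infarcts from -3.72 to 0.59 (median -2.87). The groups overlapped, and the difference was 2.96 on the log2 scale, with an adjusted p = 0.0350 by the exact permutation test. Without CKD infarct libraries 9172 and 9179 it was 2.09, with an adjusted p = 0.110 by the exact permutation test. With 1 infarct library left out at a time the difference was 2.29 to 3.42, and it missed the threshold in 8 of 13 cases, without control 9170, 9171, 9180, 9182 or 9183 or without CKD 9172, 9177 or 9179. Tested alone between CKD and control infarcts, Rpl3l differed by 2.27 ± 0.81 on the log2 scale (SE, adjusted p = 0.0586). Adding the cardiomyocyte score to the model gave -0.22, with adjusted p = 0.974. The score itself was lower in control infarcts, at 7.82 to 10.9, than in most CKD infarcts, at 10.8 to 12.8. In remote tissue the ratio did not pass between diets (difference 0.53, adjusted p = 0.401 by the exact permutation test). The CKD effect on the ratio did not pass the test of a difference between tissues (2.38, adjusted p = 0.131 by exact permutation).

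**Figure D5:**
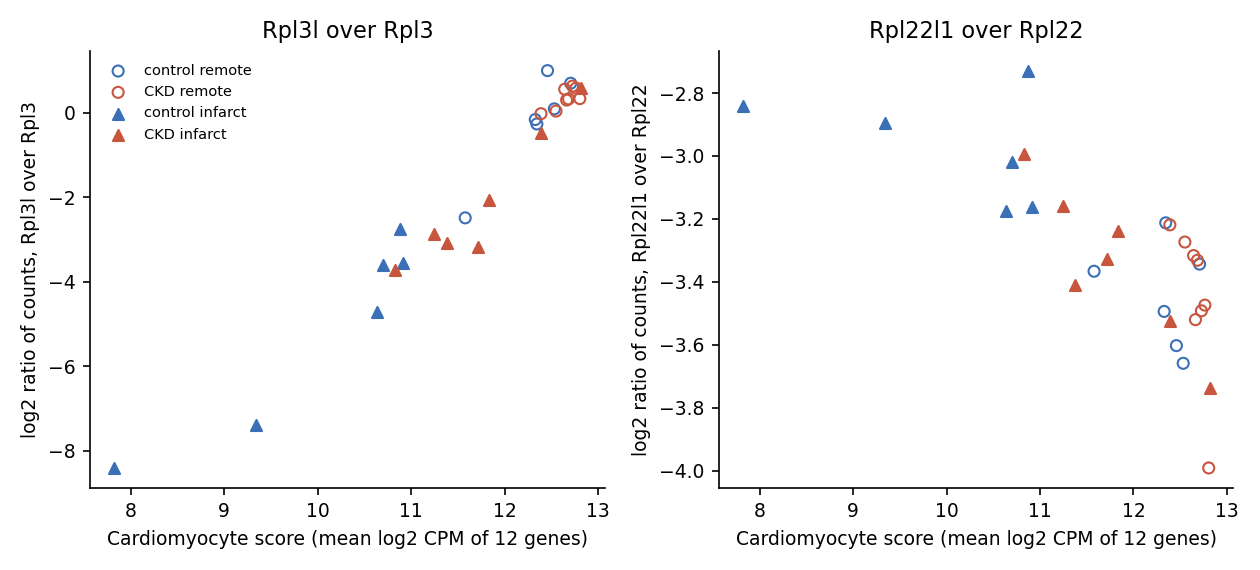
The log2 ratio of counts of Rpl3l to Rpl3 (left) and of Rpl22l1 to Rpl22 (right) against the cardiomyocyte score of the same library, with open circles for remote and filled triangles for infarct tissue, blue for control and red for CKD. The control infarct libraries with the lowest scores, down to 7.82, hold the lowest Rpl3l ratios, down to -8.40, and the CKD infarct libraries 9172 and 9179 lie near the remote ones.

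Rpl22l1, the paralog of the RNA-binding protein Rpl22, went the other way from Rpl3l. It was at 16.3 to 25.6 CPM in control remote tissue (median 18.6) and 32.6 to 42.02 CPM in control infarcts (median 35.1), with no overlap. In CKD mice it was at 17.3 to 23.02 CPM in remote tissue (median 21.6) and 23.5 to 38.1 CPM in the infarct (median 27.8), also with no overlap. The log2 fold change was 0.85 ± 0.13 (SE, adjusted p = 1.49e-05) in control and 0.49 ± 0.11 (SE, adjusted p = 0.00177) in CKD mice. Rpl22 itself rose by 0.39 ± 0.10 (SE, adjusted p = 0.00103) and 0.36 ± 0.09 (SE, adjusted p = 0.00194). The log2 ratio of Rpl22l1 to Rpl22 was 0.48 higher in control infarcts than in control remote tissue, with an adjusted p = 0.0108 by the exact permutation test. In CKD mice the ratio was 0.11 higher, with an adjusted p = 0.477 by the same exact test. That test took the tissues of a mouse as unpaired. With 6 mice the exact sign-flip permutation test cannot give p under 0.03125, which was adjusted to 0.0625 for Rpl3l to Rpl3. The Rpl22l1 ratio of control mice thus could not pass it.

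Between diets the Rpl22l1 to Rpl22 ratio was lower in CKD than in control infarcts, by a difference of -0.37 (adjusted p = 0.0320, exact permutation test). The control infarcts held log2 ratios of -3.18 to -2.73 (median -2.96) and the CKD infarcts -3.74 to -2.99 (median -3.33), which overlap. Without CKD infarct libraries 9172 and 9179 the difference was -0.25, with an adjusted p = 0.106 by exact permutation. The change from remote to infarct within a mouse was 0.14 ± 0.23 in CKD (SD, n = 7) and 0.48 ± 0.18 in control mice (SD, n = 6), a difference of -0.34 with an adjusted p = 0.0350 by the exact permutation test. Without the 3 libraries that stood apart this difference was -0.39, with an adjusted p = 0.0397 by exact permutation. With 1 library left out at a time it was -0.40 to -0.28 and missed the threshold in 16 of 27 cases, with an adjusted p of up to 0.0758 by exact permutation. In the test of the gene by itself, that difference between tissues was -0.36 ± 0.17 (SE, adjusted p = 0.249), and the CKD difference in the infarct was -0.37 ± 0.13 (SE, adjusted p = 0.0543).

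The levels of 2 other paralogs overlapped between tissues while their partners rose. Rps27l, a p53-responsive paralog of Rps27, was at 60.4 to 94.9 CPM in control remote tissue (median 84.1) and 71.4 to 90.2 CPM in control infarcts (median 81.9). Rps27 was at 182 to 315 CPM in control remote tissue and 343 to 497 CPM in control infarcts, with no overlap. The log2 ratio of Rps27l to Rps27 was lower in the infarct by -0.53 in control mice and -0.38 in CKD mice, each with an adjusted p = 0.0108 by the exact permutation test. Rpl7l1, a paralog of Rpl7 known for a part in ribosome assembly, was at 51.9 to 62.0 CPM in control remote tissue and 53.5 to 62.4 CPM in control infarcts. Rpl7 rose by 0.45 ± 0.11 (SE, adjusted p = 0.00117) in control and 0.29 ± 0.10 (SE, adjusted p = 0.0215) in CKD mice. The log2 ratio of Rpl7l1 to Rpl7 was lower in the infarct by -0.48 and -0.29 in control and CKD mice (adjusted p = 0.0144 and 0.0178, exact permutation test). With within-mouse differences these 4 ratios had an adjusted p = 0.0625 by the exact sign-flip permutation test. Rpl39l had a median of 7 counts per library and was not tested against Rpl39. It ranged from 0.0504 to 0.867 CPM over all libraries, and its log2 fold change of 0.71 ± 0.51 in control mice (SE, adjusted p = 0.229) became 1.65 with adjusted p = 0.00683 without library 9180. The pair of Rpl36al, which has a median of 6 counts, and Rpl36a was likewise not tested.

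CKD changed no member detectably in remote tissue. None of 82 members was called, against 0.0216% of all 13902 genes (3 genes), and 1 member had an unadjusted p under 0.05. DESeq2 called 0 members as well, and 0.698% of all genes. The members' median log2 fold change was 0.03, and the range was -0.40 to 0.32. The smallest p belonged to Rpl8, which lies near the peptidyl transferase centre (0.21 ± 0.09, SE, adjusted p = 0.405), followed by Rps2 (0.17 ± 0.09, SE, adjusted p = 0.457). No member's libraries were free of overlap between the diets, against 0.257% of all genes.

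CKD infarcts were compared with control infarcts in the same way. None of 83 members was called, against 20.3% of all 14358 genes (13.1% higher and 7.14% lower), and 3 members had an unadjusted p under 0.05. The calls over all genes lay near the threshold, with a smallest adjusted p of 0.0345 in edgeR. Leaving out some single libraries kept calls, at 11.5% to 32.6% of all genes. Yet 0 genes were called without control 9171, 9182 or 9183 or without CKD 9172 or 9177. The same count was 0 without both 9172 and 9179, with the cardiomyocyte score in the model, and when scaled to the ribosomal total. DESeq2 and the fit of all 27 libraries each called 3 members, namely Rpl3l and Rpl36 higher and Rpl22l1 lower, where they called 31.7% and 34.3% of all genes. The members' median log2 fold change was -0.01, against -0.02 over all genes. Rpl36 was at 208 to 290 CPM in control infarcts (median 262) and 248 to 528 CPM in CKD infarcts (median 335), at 0.40 ± 0.16 (SE, adjusted p = 0.0785). Rps2 alone had libraries free of overlap, 1 of 83 members against 6.48% of all genes, at 759.5 to 915 CPM in control and 922 to 1562 CPM in CKD infarcts. The difference between the CKD effects in the infarct and in remote tissue was called for 0 of 83 members and for 0% of all genes in edgeR, and 2 members had an unadjusted p under 0.05. DESeq2 called 0 members and 4.06% of all genes. By that comparison, Rpl3l was at 2.0 ± 0.82 (SE, adjusted p = 0.196).

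Genes that build, complete or use the ribosome were examined beside the members. Of 5 further ribosomal genes that the name rule misses, 3 were called higher in the infarct in each diet. Fau, whose product is cut to give Rps30, was at 0.55 ± 0.16 (SE, adjusted p = 0.00470) in control and 0.61 ± 0.14 (SE, adjusted p = 0.00187) in CKD mice. Rack1, a signalling scaffold on the small subunit, was at 0.44 ± 0.11 (SE, adjusted p = 0.00145) and 0.25 ± 0.10 (SE, adjusted p = 0.0420), and with mouse as a block it did not pass in CKD mice (adjusted p = 0.0967).

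The counts for the gene lists that follow stand against 30.7% of all genes called higher and 33.2% lower in control infarcts, and 24.7% higher and 20.2% lower in CKD infarcts. Of 25 ribosome biogenesis genes, 3 were called higher and 7 lower in control infarcts, with a median of -0.06, and 3 higher and 3 lower in CKD infarcts. In control mice the list ranged from -0.85 to 1.45, and its smallest adjusted p in edgeR, 2.73e-05, belonged to a gene not named here. The 2 genes named next are both rises and do not stand for the list. Npm1, a nucleolar chaperone, rose by 0.89 ± 0.15 (SE, adjusted p = 3.74e-05) in control and 0.74 ± 0.14 (SE, adjusted p = 2.39e-04) in CKD mice. Myc, a transcription factor that drives ribosome production, rose by 1.45 ± 0.32 (SE, adjusted p = 4.46e-04) and 1.34 ± 0.29 (SE, adjusted p = 9.65e-04). Of 13 elongation and oligopyrimidine-tract genes, 5 were called higher and 4 lower in control infarcts, and 4 higher and 2 lower in CKD infarcts. The 2 forms of elongation factor 1 alpha moved apart. Eef1a1, the general form, rose by 1.33 ± 0.24 (SE, adjusted p = 5.43e-05) in control and 0.98 ± 0.21 (SE, adjusted p = 8.75e-04) in CKD mice. Eef1a2, the form of muscle and neurons, was at -1.74 ± 0.29 (SE, adjusted p = 2.51e-05) in control and -0.60 ± 0.25 (SE, adjusted p = 0.0533) in CKD mice. In CKD against control infarcts Eef1a2 was higher by 1.25 ± 0.34 (SE, adjusted p = 0.0345), which became 1.02 with adjusted p = 0.104 without libraries 9172 and 9179. Pabpc1, the poly(A)-binding protein, rose by 1.32 ± 0.24 (SE, adjusted p = 7.04e-05) and 1.19 ± 0.22 (SE, adjusted p = 2.14e-04).

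Initiation factors and the mTORC1 pathway, which control the start of translation, were examined against the same shares of all genes. Of 27 initiation factor genes, 2 were called higher and 7 lower in control infarcts and 3 higher and 4 lower in CKD infarcts. Eif4a1, the helicase of the cap-binding complex, was at 0.39 ± 0.14 (SE, adjusted p = 0.0169) and 0.38 ± 0.13 (SE, adjusted p = 0.0169). Eif1, which guards start-codon choice, was at -1.05 ± 0.21 (SE, adjusted p = 1.49e-04) and -0.47 ± 0.19 (SE, adjusted p = 0.0415). Of 21 mTORC1 genes, 1 was called higher and 14 lower in control infarcts, and 1 higher and 5 lower in CKD infarcts. Mtor, the kinase itself, was at -0.76 ± 0.16 (SE, adjusted p = 2.06e-04) and -0.42 ± 0.14 (SE, adjusted p = 0.0196), and Tsc2, an inhibitor of the complex, was at -0.93 ± 0.13 (SE, adjusted p = 1.02e-05) and -0.45 ± 0.12 (SE, adjusted p = 0.00351). Of 10 p53 target genes, 8 were called higher and 1 lower in each diet. In CKD against control infarcts the calls were 5 higher for biogenesis, 3 higher and 1 lower for elongation, 3 higher for initiation, 6 higher for mTORC1 and 1 higher for p53 targets, against 13.1% higher and 7.14% lower over all genes, and none in remote tissue. These calls too were lost in each of the settings in which 0 genes were called. These gene lists, like the members, differ between tissues together with the cardiomyocyte, scar, macrophage and endothelial genes given above, whose part in the differences was not tested.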

How the data were processed

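Bulk RNA of heart tissue was measured in 27 libraries. The deposited table holds whole-number counts per gene, a unit taken from the values. The submitters' processing notes name kallisto 0.48.0 and the build GRCm39, and how transcript estimates became gene counts is not given in the sources used here. NEBNext Ultra II libraries were made from total RNA, per the labels' protocols. The members, gene lists, comparisons and alternatives were chosen with earlier results of these data known.

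Low genes were removed by filterByExpr. TMM scaling and quasi-likelihood F tests were run in edgeR 4.0.16 (R 4.3.3), and p-values were adjusted by Benjamini-Hochberg over all genes at a threshold of 0.05. The diets were compared using libraries of 1 tissue only. Tissues, and the difference of the CKD effects, were compared in 1 model of the 27 libraries holding 4 group means. Standard errors are the log2 fold change divided by the root of F. CPM are TMM-scaled over all 27 libraries, and log2 CPM for the score used a prior count of 2. Ratios within pairs had 0.5 added to each count and needed a median of 10 counts for both genes. They were tested by exact permutation in scipy, over libraries or, for the difference of CKD effects, over within-mouse changes. No library was a duplicate of another of its group (lowest chi-square per degree of freedom 9.03, 79 pairs). Tissues of 1 mouse form a pair, since they come from the same animal. Their deviations from the group means correlated at -0.10 to 0.40 over 13 pairs (median 0.17), against a median of -0.02 between mice.

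The rule for named genes took, per comparison, the 5 called members of smallest p in each direction or else 2 members of smallest p, a set list of paralogs, partners and textbook members, and up to 2 genes per pathway list. The text prints a selection of these. Fau, Rack1, Mtor, Eef1a1, Eif4a1 and Eif1, where outside this rule, were named after their values were seen. Other settings tried were size factors of DESeq2, upper-quartile and total-count scaling, other filters on low counts, DESeq2 and limma-voom as tools, 1 model for all libraries, a covariate for the cardiomyocyte score, mouse as a block, libraries left out, mouse 9179 relabelled, and scaling to the ribosomal total. Promoter sequences are from RefSeq on GRCm38.p6, which is not the build of the counts. Some genes of the table are not reported here. Of the marker genes listed, 1 erythroid gene was not matched by symbol in the table.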

Additional observations from a re-analysis of the deposited data

Results flagged for a closer look

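Groups of 6 to 8 libraries were checked for a highest or lowest library far from the others. Over 136 combinations of a measure and a group, 17 were found, where chance gives about 1 in 20 for a single check. Many of the measures come from the same libraries and vary together, so the 17 cannot be read as more than chance gives. In control remote tissue library 9180 held 6 of them: a cardiomyocyte score of 11.58, the next library being at 12.33; a log2 ratio of Rpl3l to Rpl3 of -2.49; and the highest levels of Rpl3 at 582.7 CPM, Rpl10a at 351.5 CPM, Rpsa at 919.6 CPM and Rpl39l at 0.8504 CPM. In control infarcts library 9183 was highest for Rpl34 at 368.7 CPM, Rps27 at 497.2 CPM, Rps28 at 459.2 CPM and Rps3a1 at 927.6 CPM. Also in control infarcts, library 9170 was lowest for Rps2 at 759.5 CPM and library 9184 was highest for the ratio of small-subunit to large-subunit counts at 0.7734. In CKD infarcts library 9179 was highest for that ratio at 0.7844 and for Rps2 at 1562 CPM and Rpl8 at 869.3 CPM, and library 9176 was lowest for Rps27 at 272.6 CPM. In CKD remote tissue library 9172 was lowest for the log2 ratio of Rpl22l1 to Rpl22, at -3.992.

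The effect of CKD on the Rpl22l1 to Rpl22 ratio differed between infarct and remote tissue by -0.339 on the log2 scale, over within-mouse changes of 7 CKD and 6 control mice (exact permutation test, adjusted p = 0.0350). It missed the threshold in 16 of 27 cases when 1 library was left out, and in the test of Rpl22l1 by itself the difference had an adjusted p = 0.249 in edgeR.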

How the results depend on the processing

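The counts of members called for infarct against remote tissue stayed within 1.5 times in control mice (36 to 78 over all settings, against 52), while in CKD mice total-count scaling gave 76 and scaling to the ribosomal total 27, against 50. Over all genes, total-count scaling called 72.4% in control and 52.2% in CKD mice, and scaling to the ribosomal total 64.2% and 56.2%. The main setting called 63.9% and 45% of all genes. With mouse as a replicate block the member counts were 52 and 46, where 66.1% and 48.8% of all genes were called. Leaving out remote library 9180 or 9179 gave 52 to 59 in control and 42 to 51 in CKD mice. Those fits called 63.8% to 66.2% of all genes in control and 41.4% to 46.9% in CKD mice. For CKD against control in infarcts, where none was called, upper-quartile scaling gave 1, total counts 4, DESeq2 3, the fit of all 27 libraries 3, and leaving out 1 library 0 to 2. In the same order, 20.7%, 25.3%, 31.7%, 34.3% and 0% to 32.6% of all genes were called. The main setting called 20.3% of all genes there. Remote tissue and the difference of CKD effects gave 0 in every setting run. The causes were not tested.

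With the cardiomyocyte score as a covariate, CKD against control in infarcts became -0.22 for Rpl3l and 0.11 for Rpl3. Scaled by total counts, Rps2 in control mice became 0.13. Scaled to the ribosomal total, infarct against remote became -0.049 for Rpsa, -0.16 for Rplp0 and -0.0035 for Rps6 in control mice, and -0.11 for Rpsa, -0.16 for Rplp0, -0.031 for Rps6, -0.042 for Rpl5 and -0.034 for Rack1 in CKD mice. With mitochondrial genes left out of the total, the share of counts was 3.34% in control remote tissue, 3.27% in CKD remote tissue, 5.08% in control infarcts and 4.49% in CKD infarcts, and the CKD groups then overlapped.

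For the Rpl3l to Rpl3 ratio, CKD against control in infarcts was 2.29 to 3.42 when 1 library was left out, short of the threshold in 8 of 13 cases, and 2.09 (adjusted p = 0.110, exact permutation) without the 3 libraries that stood apart. With mouse as a replicate block the tissue differences were -4.88 in control and -2.50 in CKD mice, no longer past the threshold after adjustment. In remote tissue the differences between diets changed sign for 2 other pairs. For Rpl22l1 to Rpl22 they were 0.014 with mouse 9179 read as control, 0.010 without the 3 libraries, and -0.048 to 0.071 with 1 library left out, and for Rpl7l1 to Rpl7 -0.079 to 0.056 with 1 left out. Rpl22l1 to Rpl22 in infarcts was -0.43 to -0.30 with 1 library left out and lost its call in 7 of 13 cases, and its difference between tissues was -0.40 to -0.28 and lost its call in 16 of 27. Depth was at least 14255456 counts in every library, and low counts limit Rpl39l, Rpl10l and Rpl36al, and also Rps10 (12 to 70 counts per library) and Rpl24 (33 to 135).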
